A study of Mus musculus with 11 samples.

Results

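The NF-κB genes described here were 5 transcription factor subunits (Nfkb1, Nfkb2, Rel, Rela and Relb) and 5 genes grouped as inhibitors (Nfkbia, Nfkbib, Nfkbid, Nfkbie and Tnfaip3). They were taken by gene symbol and are 10 of the 55414 genes in the deposited count table. All 10 passed the filter on low counts. RNA was sequenced from mouse OT-I CD8+ T cells, whose transgenic T cell receptor recognises an ovalbumin peptide, and the OT-I genotype was shared by every library. All cells were taken at 12 h. The 3 Torin libraries (numbered 1, 3 and 4) came from cells given Torin, an inhibitor of the kinase mTOR, together with N4, the stimulating ovalbumin peptide. The 4 Stim libraries came from cells given DMSO, the solvent, with N4. The 4 Naive libraries came from cells left untreated, so Stim and Naive cells differed in solvent as well as peptide. The dose of Torin or peptide and the age and sex of the mice are not given in the sources used here. The labels do not say whether libraries of a group came from separate mice, and the p-values then describe the spread among these libraries alone, some of which may be technical.

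NF-κB proteins are dimers of Rel-family subunits that wait in the cytoplasm of resting lymphocytes, bound by IκB proteins. After T cell receptor engagement, the IκB kinase complex is activated, IκB is degraded, and the freed dimers enter the nucleus and bind κB sites. Several of the genes they switch on encode subunits and inhibitors of the pathway itself, a feedback known in lymphocytes.

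Promoter sequence is shown first, because feedback of this kind is read through κB sites. The RefSeq promoter table (GRCm38.p6) held promoters for 8 of the 10 genes, Nfkb1 and Relb being the exceptions. A match to the κB consensus, searched on both strands in the 250 bases upstream of each annotated start, was present for 6 of the 8 genes (Nfkb2, Rel, Nfkbia, Nfkbid, Nfkbie and Tnfaip3), and in 8 of the 13 promoters listed for the 8 genes. Of all 32851 promoters in the table, 7.25% held a match, and 8.23% of all its genes had a promoter with a match. Rela and Nfkbib had no match in this window. A match upstream of Nfkb2 was GGGACTTTCC, the canonical site of the immunoglobulin kappa enhancer. That string was taken from the Nfkb2 match and then counted, on either strand, in 0.14% of all promoters. Its presence at Nfkb2 is therefore no test against that share. One window of 30 bases per gene follows, on the gene's own strand and with the matched bases in capitals. Where matches on both strands overlap, the capitals cover them together.
Nfkb2, chr19:46305695-46305724: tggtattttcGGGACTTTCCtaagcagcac
Rel, chr11:23771042-23771071: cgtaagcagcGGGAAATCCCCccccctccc
Nfkbia, chr12:55492657-55492686: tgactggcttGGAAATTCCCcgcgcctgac
Nfkbid, chr7:30422170-30422199: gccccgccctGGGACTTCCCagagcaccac
Nfkbie, chr17:45555584-45555613: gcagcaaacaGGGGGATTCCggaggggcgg
Tnfaip3, chr10:19015411-19015440: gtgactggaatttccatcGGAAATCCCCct
The match shown began 225 bases upstream of an annotated start in Nfkb2, 92 in Rel, 29 in Nfkbia, 226 in Nfkbid, 106 in Nfkbie and 12 in Tnfaip3. The members held 11 matches in all, and those not shown were in Nfkb2, Nfkbid and Tnfaip3. Among them were matches 39 and 11 bases upstream of a different Nfkb2 start. A match of letters is a description of sequence and was not measured as binding.

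Library totals were 241865667 to 405884097 estimated counts per library. T cell marker transcripts (8 of 8 detected in every library) summed to 4159 to 4449 CPM (counts scaled to a common library size) in Torin, 2451 to 3161 in Stim and 5499 to 6820 in Naive libraries. Immunoglobulin kappa transcript stood out in the libraries of number 4 in all 3 groups, where the summed level of 10 B cell markers reached 13245 CPM in Torin, 14393 in Stim and 47397 in Naive. In the other libraries that sum was 39.6 and 56.2 CPM in Torin, 43.2 to 118 in Stim and 227 to 370 in Naive. Granulocyte markers stood out in the libraries of number 2, at 2011 CPM in Stim and 8077 in Naive. Summed monocyte and macrophage markers were 12.9 to 17.2 CPM in Torin, 9.59 to 95.3 in Stim and 129 to 2118 in Naive libraries. Dendritic cell markers summed to 63.9 to 129, 84.3 to 140 and 90.8 to 514 CPM in the same order. Natural killer cell markers summed to 4189 to 6075, 5302 to 9574 and 1371 to 2042 CPM. The median log2 change over the natural killer markers was nevertheless -0.09 in Stim against Naive. In bulk RNA, fewer cells of a type and less RNA per cell cannot be told apart. Leaving out all libraries of number 2, or all of number 4, gave the same 5 members past the test in Stim against Naive, while in Torin against Naive the call of Nfkb2 was lost in both with changes of 0.60 and 0.72, against 0.66 with all libraries.

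The subunit genes differed in opposite directions between Stim and Naive libraries, which differ in peptide and solvent. Nfkb1 and Rel rose, Relb fell, and Nfkb2 and Rela did not pass the test. Among the inhibitors, Nfkbib and Nfkbid rose, while Nfkbia, Nfkbie and Tnfaip3 did not pass. In all, 5 of the 10 members passed at an adjusted p of 0.05 in Stim against Naive libraries, 4 higher and 1 lower (edgeR, adjusted over 22238 genes). Of all genes tested, 39.5% passed, 19.2% higher and 20.2% lower, so a count of 5 lies near that share. The directions and sizes carry the description. The genes tested include ones with a mean CPM below 5, where no member lies. With only genes at a mean CPM of at least 5, 5881 passed. Their share was not computed, so the background at the members' own level is not given. The same 5 members were those whose Stim and Naive libraries did not overlap, against 41.5% of all genes (19.8% higher, 21.7% lower). The median log2 change was 0.47 over the 10 members and -0.22 over all genes. These calls leave library number out of the model. With library number as a block, 7 members passed, as Nfkb2 and Rela joined, and 9163 of all genes did.

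Nfkb1 encodes the precursor of the p50 subunit and made the largest change among the members in Stim against Naive libraries. It had 65.9, 75.7 and 77.5 CPM in Torin libraries, 79.4, 77.8, 83.5 and 73.0 in Stim libraries, and 18.3, 18.2, 16.8 and 11.9 in Naive libraries. Every peptide-treated library, with or without Torin, lay above every Naive library by a wide gap, and Torin and Stim libraries overlapped. The log2 change was 2.27 ± 0.15 (SE) in Stim against Naive (adjusted p = 6.72e-06, edgeR) and 2.16 ± 0.16 in Torin against Naive (adjusted p = 2.8e-05), or 4.81-fold and 4.48-fold. In Torin against Stim it was -0.10, with a 95% interval of -0.45 to 0.25.

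Rel encodes c-Rel, the subunit most tied to lymphocyte activation and to Il2 transcription. It had 29.2, 26.5 and 23.5 CPM in Torin libraries, 19.7, 14.0, 28.2 and 17.7 in Stim libraries, and 7.80, 9.36, 6.97 and 8.90 in Naive libraries. Torin libraries all exceeded Naive libraries, as did Stim libraries, while Stim 3 lay within the Torin range. Rel rose by 1.27 ± 0.21 on the log2 scale in Stim against Naive (adjusted p = 0.000623, edgeR) and by 1.68 ± 0.22 in Torin against Naive (adjusted p = 0.000268). The difference between Torin and Stim was 0.41 ± 0.22 (95% interval -0.08 to 0.89, adjusted p = 0.341).

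Relb, the partner of p52 in the noncanonical pathway, was the member that fell. It had 51.2, 52.6 and 47.5 CPM in Torin libraries, 35.7, 32.5, 36.1 and 35.8 in Stim libraries, and 96.6, 55.9, 61.4 and 50.6 in Naive libraries. Stim libraries were the lowest and closely grouped, Torin libraries lay above all Stim libraries, and Torin overlapped the lower part of the wide Naive range. Relb fell by 0.92 on the log2 scale in Stim against Naive (SE 0.19, adjusted p = 0.00251, edgeR). Its log2 change in Torin against Naive was -0.39 ± 0.20 (adjusted p = 0.169). That change passed with library totals as the only scaling (-0.76, adjusted p = 0.0465) and among genes with a mean CPM of at least 5 (-0.54, adjusted p = 0.027), and it was nearer 0 without Naive 1 (-0.15) or Torin 4.

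Relb was also the member nearest to a call between Torin and Stim, at 0.53 ± 0.20 on the log2 scale (95% interval 0.09 to 0.97, unadjusted p = 0.0235, adjusted p = 0.171, edgeR), and it was higher in 3 of 3 number-matched pairs. The call depended on which libraries set the spread. With the Naive libraries left out of the fit the change was 0.55 and the adjusted p 0.0376, and without Naive 1, the highest library, it was 0.53 with an adjusted p of 0.0328. Over all 20 alternatives the change ranged from 0.47 to 0.67.

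Rela encodes the main activating subunit, p65, and Nfkb2 the precursor of p52. Rela had 129, 98.3 and 86.9 CPM in Torin libraries, 127, 75.1, 69.6 and 99.0 in Stim libraries, and 101.1, 46.7, 59.8 and 52.8 in Naive libraries. Library 1 was the highest of each group. Torin and Stim libraries overlapped, and Naive 1 was the only Naive library within their range. The log2 change was 0.51 ± 0.27 in Stim against Naive (adjusted p = 0.164, edgeR), and 0.54 ± 0.15 with library number as a block (adjusted p = 0.02). Stim exceeded Naive in 4 of 4 number-matched pairs. Without Naive 1 the change was 0.80 (adjusted p = 0.0208), without Stim 1 it was 0.32, and with library totals as the only scaling it was 0.02, neither of the last pair past the test.

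For Nfkb2 the values were 65.7, 78.9 and 68.0 CPM in Torin libraries, 70.1, 51.7, 68.7 and 47.9 in Stim libraries, and 57.4, 38.6, 46.8 and 36.1 in Naive libraries. Torin libraries all lay above Naive libraries, and Stim overlapped both. Against Naive, the log2 change was 0.41 ± 0.18 in Stim (adjusted p = 0.0979, edgeR) and 0.66 ± 0.20 in Torin (adjusted p = 0.0244). With library number as a block the Stim change was 0.41 ± 0.14 (adjusted p = 0.0444), and it passed with DESeq2 (0.43, adjusted p = 0.0491) and without Naive 1 (0.55, adjusted p = 0.0306). The Torin call was lost without Torin 1 (0.72), Torin 3 (0.58), Naive 2 (0.60) or Naive 4 (0.57), and with library totals as the only scaling (0.30).

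**Figure D1:**
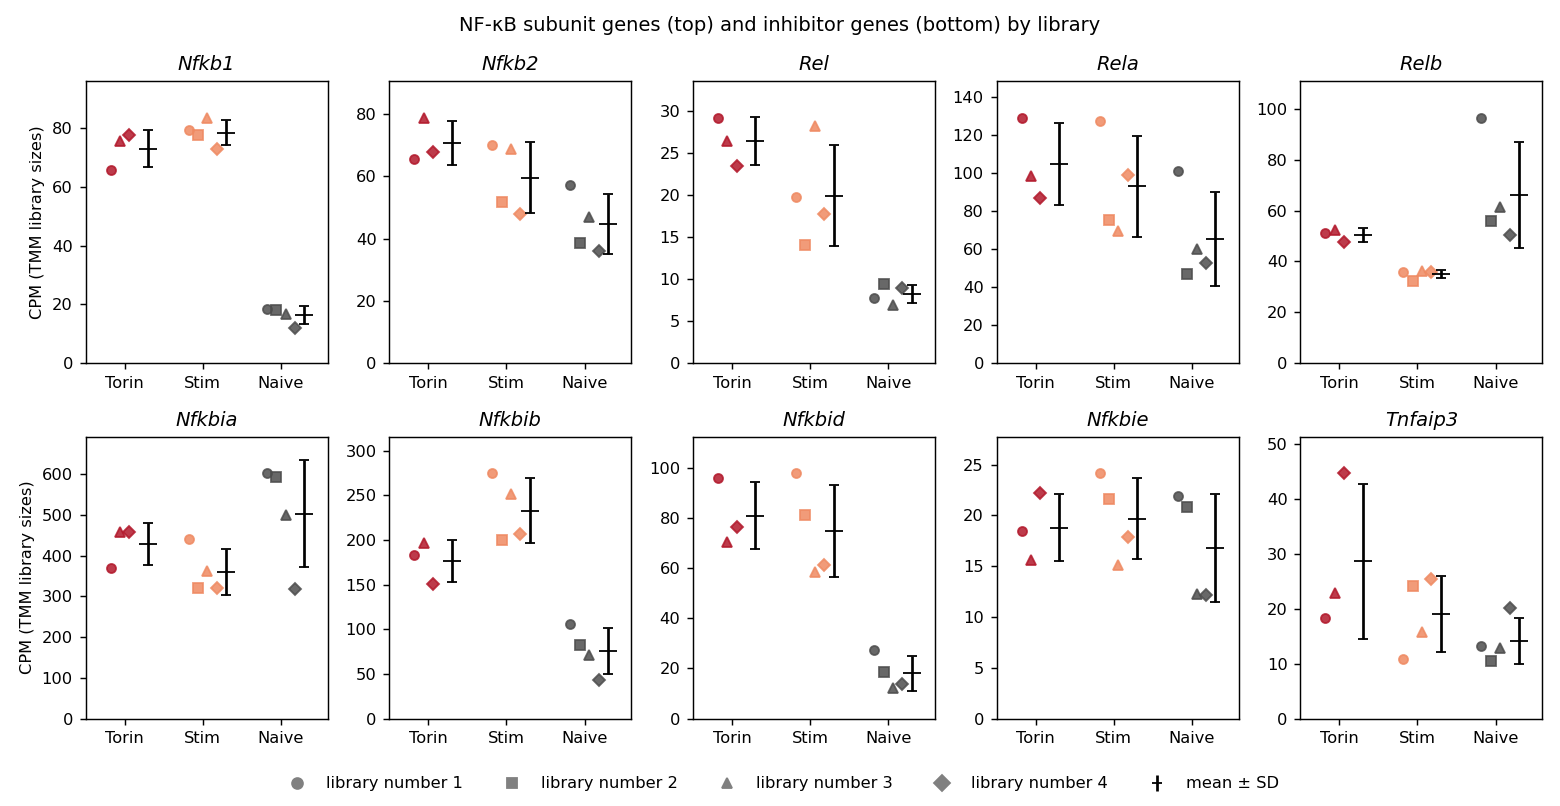
CPM of the 10 genes in each library, on axes that start at 0, with subunits in the top row and inhibitors in the bottom row. Marker shape gives the library number and bars give mean ± SD (n = 3 Torin, 4 Stim, 4 Naive); Nfkb1, Rel, Nfkbib and Nfkbid are higher in all Torin and Stim libraries than in any Naive library, and Relb is lowest in Stim libraries.

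Nfkbib encodes IκBβ, a cytoplasmic inhibitor. It had 183, 196 and 151 CPM in Torin libraries, 275, 200, 251 and 206 in Stim libraries, and 106, 82.3, 71.1 and 43.2 in Naive libraries. The 3 groups did not overlap, with Stim highest and Naive lowest, although the highest Torin library came close to the lowest Stim library. Nfkbib rose by 1.62 ± 0.24 on the log2 scale in Stim against Naive (adjusted p = 0.00033, edgeR) and by 1.23 ± 0.26 in Torin against Naive (adjusted p = 0.00382). In Torin against Stim its change was -0.40 ± 0.26 (95% interval -0.97 to 0.17, adjusted p = 0.435), lower in 3 of 3 number-matched pairs.

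Nfkbid encodes IκBNS, an atypical IκB that acts in the nucleus of activated lymphocytes. It had 96.1, 70.3 and 76.4 CPM in Torin libraries, 97.7, 81.2, 58.5 and 61.4 in Stim libraries, and 27.4, 18.5, 12.2 and 13.7 in Naive libraries. Torin and Stim libraries overlapped, and all of them lay above Naive libraries. The log2 change was 2.05 ± 0.27 in Stim against Naive (adjusted p = 0.00015, edgeR) and 2.17 ± 0.29 in Torin against Naive (adjusted p = 0.000257), or 4.15-fold and 4.5-fold. Between Torin and Stim it was 0.12, with a 95% interval of -0.51 to 0.74.

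Nfkbia encodes IκBα, the inhibitor that is degraded and resynthesised within the first hours of signalling. At 12 h it had 369, 458 and 458 CPM in Torin libraries, 440, 321, 362 and 319 in Stim libraries, and 602, 592, 500 and 319 in Naive libraries. Naive 4 lay just below every Stim library, and the other Naive libraries lay above every Torin and Stim library. The log2 change was -0.48 ± 0.20 in Stim against Naive (adjusted p = 0.0825, edgeR), -0.65 without Naive 4 (adjusted p = 0.00858), and -0.61 among genes with a mean CPM of at least 5 (adjusted p = 0.0121). Naive 4 was also the library with the highest immunoglobulin kappa signal, and whether the 2 are related was not tested. With library totals as the only scaling the change was -0.97 (adjusted p = 0.00788).

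Nfkbie, which encodes the cytoplasmic inhibitor IκBε, did not pass the test in any comparison. Stim exceeded Naive in 4 of 4 number-matched pairs for Nfkbie, by 0.05 to 0.56 on the log2 scale. It ranged from 15.6 to 22.3 CPM in Torin, 15.1 to 24.1 in Stim and 12.2 to 21.96 in Naive libraries, with a log2 change of 0.23 in Stim against Naive (95% interval -0.30 to 0.76). Tnfaip3 encodes A20, a ubiquitin-editing enzyme that shuts off signalling upstream of the IκB kinase. It had 18.4, 23.0 and 44.7 CPM in Torin libraries, 10.9, 24.2, 15.9 and 25.4 in Stim libraries, and 13.3, 10.4, 12.9 and 20.1 in Naive libraries. The groups overlapped, and Torin 4 was the highest library. Its log2 change was 0.43 ± 0.34 in Stim against Naive (adjusted p = 0.355, edgeR) and 1.02 ± 0.37 in Torin against Naive (adjusted p = 0.0558). The second value passed with DESeq2 (0.98, adjusted p = 0.0269), with library number as a block (0.94, adjusted p = 0.0185) and without Torin 1 (1.26), Stim 1 (1.02) or Naive 4 (1.23), but it was 0.65 without Torin 4 (adjusted p = 0.213). In Torin against Stim the change was 0.59 ± 0.37 (adjusted p = 0.419), higher in 3 of 3 number-matched pairs by 0.53 to 0.81, and 0.13 without Torin 4.

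Torin in stimulated cells moved none of the 10 members past the test. Of all genes, 4.62% passed in Torin against Stim (2.32% higher, 2.3% lower), and at an unadjusted p under 0.05 the count was 1 member, Relb, against 20% of all genes. With only genes at a mean CPM of at least 5, 1378 passed, and their share was not computed. DESeq2 also called 0 of 10, with 1 at an unadjusted p under 0.05. Torin and Stim libraries did not overlap for Relb, which was higher in Torin, and Nfkbib, which was lower, or 2 of 10 members against 19.7% of all genes (9.56% higher, 10.1% lower). The intervals were too wide to show that the members were alike: they reached 0.25 upward for Nfkb1 and 1.40 for Tnfaip3, and -0.97 downward for Nfkbib. The median log2 change was 0.21 over the members and -0.02 over all genes.

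Against Naive libraries, Torin libraries had 5 members past the test, all higher (Nfkb1, Nfkb2, Rel, Nfkbib and Nfkbid), while 32.2% of all genes passed, 16.4% higher and 15.8% lower. With only genes at a mean CPM of at least 5, 5120 passed, and their share was not computed. The 5 members named were also those without overlap, against 43.5% of all genes (21.1% higher, 22.4% lower). The median log2 change was 0.85 over the members and -0.18 over all genes. With library number as a block, 7 members passed, as Rela (0.62) and Tnfaip3 (0.94) joined, and 7394 of all genes did. All comparisons share libraries, so the values of Torin against Naive are given beside the others and are not separate evidence.

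**Figure D2:**
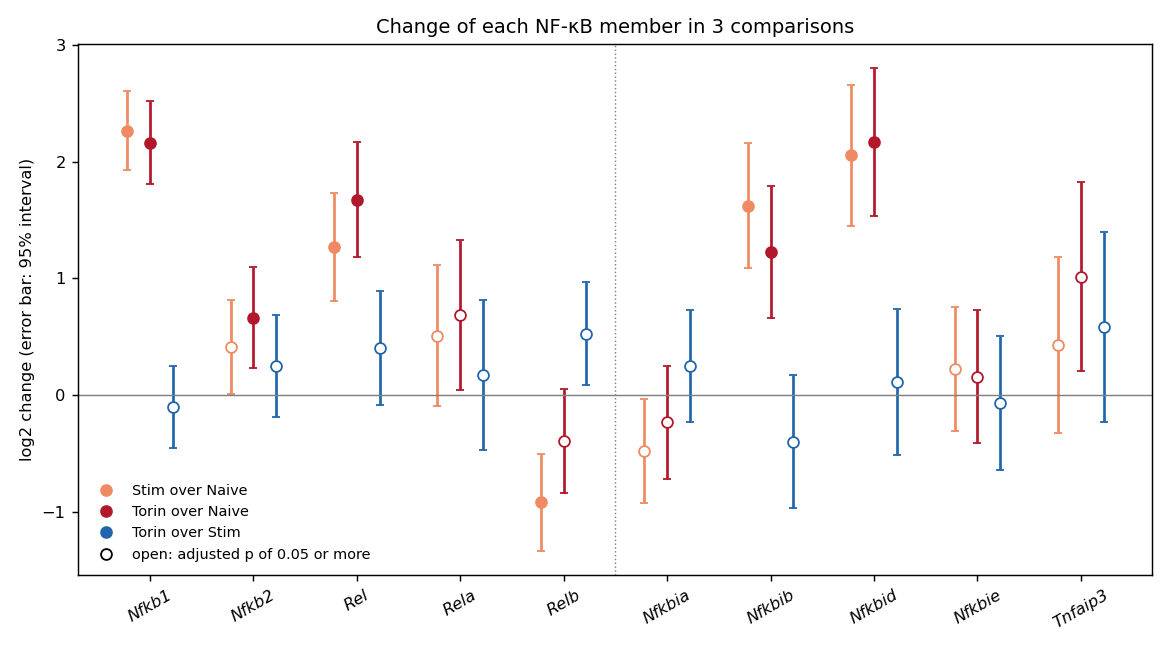
Log2 change of each gene in 3 comparisons, with 95% intervals from edgeR; filled points have an adjusted p under 0.05, and the dotted line separates subunits from inhibitors. Filled points are seen against Naive libraries only: Nfkb1, Rel, Nfkbib and Nfkbid are higher in both Stim and Torin, Nfkb2 is higher in Torin, and Relb is lower in Stim.

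Scaling matters for directions. The scaling factors of the main fit were 0.94 to 0.98 in Torin, 0.73 to 0.96 in Stim and 1.13 to 1.35 in Naive libraries. What sets them apart was not tested. With library totals as the only scaling, the median over all genes in Stim against Naive was -0.71 instead of -0.22, and calls split into 2600 higher and 6529 lower instead of 4272 and 4501. The split was 719 higher and 345 lower instead of 515 and 512 in Torin against Stim, and 2284 and 4553 instead of 3648 and 3515 in Torin against Naive. Under this scaling Nfkb1 rose by 1.77, Rel by 0.76, Nfkbib by 1.12 and Nfkbid by 1.57 in Stim against Naive, and all 4 stayed past the test.

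Levels were then compared between genes per kilobase of transcript, as CPM per kb. Nfkbia was the highest of the 10 in every group, at 272 ± 32.5 CPM per kb in Torin, 229 ± 35.9 in Stim and 320 ± 83.0 in Naive libraries (SD). Nfkbib came next, at 155 ± 24.2 in Torin, 206 ± 29.4 in Stim and 63.7 ± 22.6 in Naive libraries, so in Stim libraries the ranges of Nfkbia and Nfkbib overlapped. Per exon-union length they did not, with 65.1 to 67.0% of the cytoplasmic inhibitor sum for Nfkbia and 30.9 to 33.5% for Nfkbib in Stim libraries. Rel was the lowest of the 10 in each group, at 3.53 ± 0.38 in Torin, 2.67 ± 0.81 in Stim and 1.11 ± 0.15 in Naive libraries.

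The ranks between these ends differed between groups. In Naive libraries the order below Nfkbib was Relb (30.1 ± 8.91 CPM per kb), Rela (24.2 ± 8.97), Nfkb2 (13.8 ± 3.32), Nfkbid (8.98 ± 3.41), Nfkbie (6.71 ± 1.93), Nfkb1 (4.20 ± 0.80) and Tnfaip3 (3.75 ± 0.95), and the ranges of neighbours in this order overlapped apart from Nfkbie and Nfkb1. In Stim libraries Nfkbid (37.1 ± 9.07), Rela (34.6 ± 9.68), Nfkb1 (21.4 ± 0.49), Nfkb2 (18.5 ± 3.29) and Relb (15.8 ± 1.0) followed Nfkbib. In Stim libraries the ranges of Nfkbid and Rela overlapped and lay above those of the other 3, among which Nfkb2 overlapped both Nfkb1 and Relb. Nfkbid thus had rank 3 in Stim and rank 6 in Naive libraries, and Relb had rank 7 in Stim and rank 3 in Naive libraries. In Torin libraries the ranks were those of Stim, except that Relb (22.5 ± 1.09) and Nfkb2 (21.9 ± 2.32) stood above Nfkb1 (19.4 ± 2.1), with Nfkb2 overlapping both. These ranks depend on the lengths used. Per exon-union length, Rela (37.3 to 45.2% of the subunit sum) lay above Relb (32.3 to 35.3%) in all 4 Naive libraries, and in Stim libraries Nfkb1 (10.8% on average) came below Relb (14.9%).

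As shares of the summed subunit level, Relb held 21.2 ± 0.615% in Torin, 17.2 ± 1.53% in Stim and 41.0 ± 1.25% in Naive libraries (SD). Nfkb1 held 18.4 ± 2.87% in Torin, 23.2 ± 2.38% in Stim and 5.91 ± 1.47% in Naive libraries. Neither share overlapped between Naive libraries and the others. Rela held 36.4 ± 5.73%, 36.8 ± 6.19% and 32.5 ± 2.90% in Torin, Stim and Naive libraries. Rel remained a small part, at 3.32 ± 0.18%, 2.88 ± 0.92% and 1.61 ± 0.52% in the same order.

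The make-up of the cytoplasmic inhibitors Nfkbia, Nfkbib and Nfkbie also differed between groups. Nfkbib made up 40.1, 37.1 and 30.01% of their summed level in Torin libraries, 45.6, 46.2, 47.9 and 46.4% in Stim libraries, and 18.7, 15.4, 15.6 and 14.5% in Naive libraries. The 3 groups did not overlap, and the Stim libraries lay close together. Nfkbia made up 62.5 ± 4.99% in Torin, 51.7 ± 0.75% in Stim and 82.2 ± 1.74% in Naive libraries, and Nfkbie about the same small share throughout, at 1.77, 1.79 and 1.74%. The summed inhibitor level per summed subunit level was 4.10 ± 0.41 in Torin, 4.75 ± 0.37 in Stim and 5.42 ± 1.46 in Naive libraries, and these ranges overlapped. These shares follow from the gene levels above and are a description without a test. They depend on the lengths used: per exon-union length, Nfkbib held 23.1% in Torin, 31.8% in Stim and 9.73% in Naive libraries, and Nfkb1 held 8.49, 10.8 and 2.79% of subunits in the same order.

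**Figure D3:**
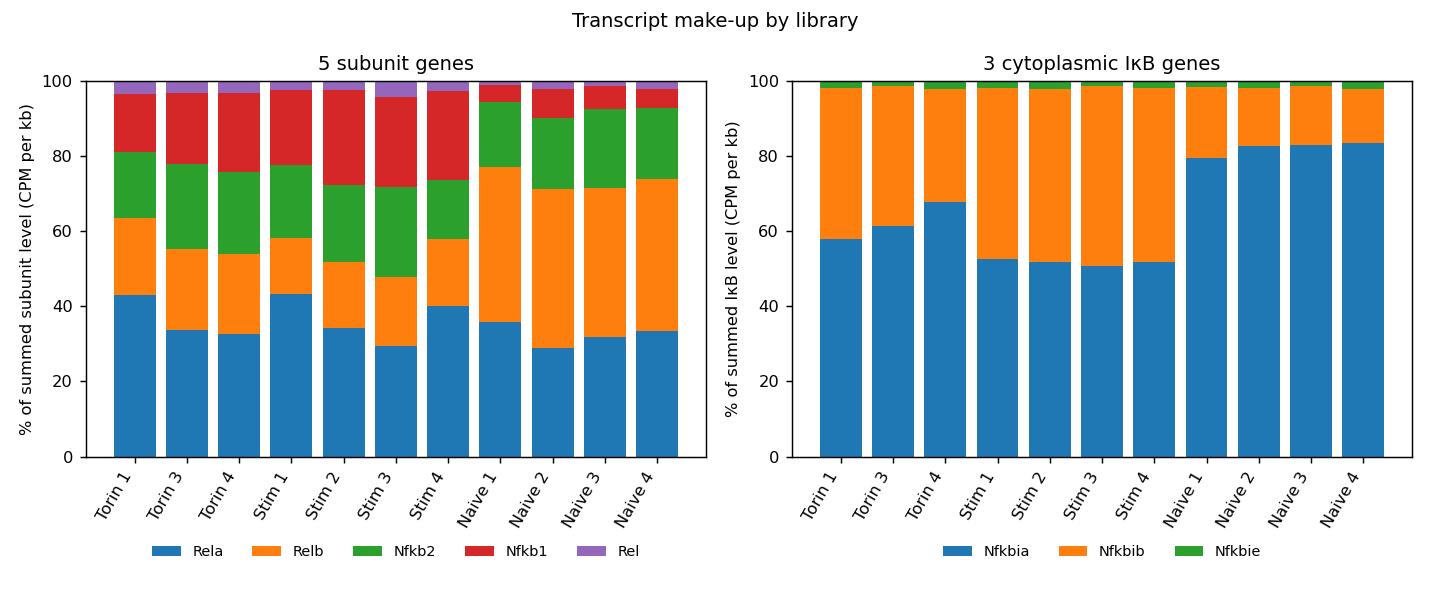
Share of the summed level (CPM per kb) held by each of 5 subunit genes (left) and 3 cytoplasmic IκB genes (right) in each library. Naive libraries are set apart by a large Relb and small Nfkb1 share on the left, and by a small Nfkbib share on the right, which lies between 14.5 and 18.7% against 30.01 to 47.9% in Torin and Stim libraries.

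Rel was counted wholly from Rel-201 in every library, and Rela-201 and Nfkbia-201 held 99.4 and 99.9% of their genes in Torin, 99.1 and 99.9% in Stim and 99.5 and 99.8% in Naive libraries. Transcript shares of Nfkb2, Nfkbid, Nfkbie and Tnfaip3 varied widely between libraries of 1 group: Nfkb2-202 held 16.2 to 71.3% of Nfkb2 in Torin, 13.5 to 80.3% in Stim and 5.86 to 58.2% in Naive libraries, and Nfkbid-203 held 77.5 to 93.4% of Nfkbid in Torin, 36.2 to 85.3% in Stim and 47.1 to 86.4% in Naive libraries. Of 20 transcripts tested from 7 members, none passed the limma test on transcript shares in Stim against Naive or in Torin against Stim, with 2 and 1 at an unadjusted p under 0.05 and none by edgeR's exon-usage test. Of all transcripts, 26.1% and 10.4% were under that unadjusted p in the same comparisons. After adjustment, 12.3% of all transcripts passed in Stim against Naive, 0.42% in Torin against Stim and 5.9% in Torin against Naive. The one member transcript past the test, in Torin against Naive, was Tnfaip3-205, annotated as a retained intron.

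Tnfaip3-205 held 0.59, 1.29 and 1.37% of Tnfaip3 in Torin libraries, 9.73, 11.7, 2.42 and 4.25% in Stim libraries, and 6.28, 5.74, 9.61 and 13.7% in Naive libraries. Torin libraries were below all others. Tnfaip3 as a whole had 18.4, 23.0 and 44.7 CPM in Torin libraries, so this transcript lay near the 0.5 CPM added before the test. The size of its log2 change therefore depends partly on that addition. With 0.1 CPM added, 1 member still passed in Torin against Naive. The log2 change in share was -1.95 ± 0.35 in Torin against Naive (adjusted p = 0.0144, limma) and -1.57 ± 0.35 in Torin against Stim (adjusted p = 0.116). The call was lost with library number as a block, with edgeR's exon-usage test and without Torin 4.

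For each member called in Stim against Naive, the genes of most similar pattern were found among 7400 genes as those with the smallest root mean square difference of centred log2 CPM over the 11 libraries. Nfkb1 was nearest to Fam136a (0.09) and Thyn1 (0.12), and Fam136a averaged 56.2 CPM in Torin, 64.0 in Stim and 13.6 in Naive libraries. Relb was nearest to Rnf187 (0.08) and Gpr108 (0.10), both lowest in Stim libraries, with Rnf187 at 148 CPM in Torin, 109 in Stim and 204 in Naive libraries. Rel was nearest to Diexf (0.16) and Ttc39b (0.17), Nfkbib to Nol12 (0.13) and Mdh2 (0.15), and Nfkbid to Zmynd19 (0.19) and Anp32b (0.21). Members were left out of the candidates.

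Over all genes, 19.2% were higher and 20.2% lower in Stim against Naive, with a median log2 change of -0.22. Of 18 genes that lead from the T cell receptor to the IκB kinase, 2 were higher and 8 lower there, with a median of -0.32. Without the libraries of number 4, those with the immunoglobulin signal, 1 was higher and 4 were lower. Bcl10, a signalling adaptor, averaged 36.2 ± 4.01 CPM in Torin, 27.0 ± 4.67 in Stim and 67.4 ± 4.49 in Naive libraries (SD), and fell by 1.32 on the log2 scale in Stim against Naive (adjusted p = 4.82e-05, edgeR). Malt1, a protease of T cell receptor signalling, averaged 31.3 ± 0.91 CPM in Torin, 13.4 ± 5.46 in Stim and 7.34 ± 1.56 in Naive libraries, and its rise of 0.87 in Stim against Naive was lost without Stim 1 (0.79), Stim 2 (0.61), Naive 2 (0.87), Naive 3 (0.75) or Naive 4 (0.85). Ube2n, a ubiquitin-conjugating enzyme, rose by 1.24.

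Of 11 noncanonical pathway genes, 3 were higher and 3 lower in Stim against Naive, with a median of -0.42, against 19.2% higher, 20.2% lower and a median of -0.22 over all genes. The 3 that rose encode costimulatory receptors, among them Tnfrsf4 (3.62 on the log2 scale) and Tnfrsf9 (2.30). Map3k14, which encodes the NF-κB-inducing kinase, averaged 4.25 ± 1.63 CPM in Torin, 3.51 ± 0.82 in Stim and 10.1 ± 0.82 in Naive libraries and fell by 1.53 (adjusted p = 0.000939, edgeR). Birc2, a ubiquitin ligase that limits this kinase, fell by 1.32. Birc3, a related ligase, fell by 0.54, a call lost without any one of Naive 1, Naive 2, Naive 4, Stim 2, Stim 3, Stim 4, Torin 3 and Torin 4, with values from -0.58 to -0.31.

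Of 15 genes grouped as further inhibitors, 3 were higher and 7 lower in Stim against Naive, with a median of -0.66. The group includes nuclear IκB genes, whose change is not read here as a loss or gain of inhibition. Over all genes 19.2% were higher and 20.2% lower, with a median of -0.22. Tnip1, which encodes a partner of A20, had 16.2, 15.0 and 17.5 CPM in Torin libraries, 8.72, 5.68, 5.83 and 8.28 in Stim libraries, and 35.0, 28.1, 28.4 and 27.4 in Naive libraries. The 3 groups did not overlap, and Torin lay between Stim and Naive. Tnip1 fell by 2.06 on the log2 scale in Stim against Naive (adjusted p = 1.36e-05, edgeR) and rose by 1.19 ± 0.19 in Torin against Stim (adjusted p = 0.00895). Its relative Tnip3 averaged 41.9 ± 23.3 CPM in Torin, 24.9 ± 12.1 in Stim and 7.50 ± 2.22 in Naive libraries, and rose by 1.73 in Stim against Naive.

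Cyld, a deubiquitinase, averaged 5.60 ± 0.26 CPM in Torin, 4.33 ± 0.63 in Stim and 16.0 ± 0.75 in Naive libraries, and fell by 1.89 in Stim against Naive. Bcl3, a nuclear IκB, averaged 19.9 ± 6.98 CPM in Torin, 31.95 ± 16.2 in Stim and 116 ± 65.9 in Naive libraries, and fell by 1.85 with overlapping libraries. Pdlim2, a ubiquitin ligase for Rela, fell by 1.98. Nfkbiz, another nuclear IκB, was at 10.99 ± 1.41 CPM in Torin, 8.50 ± 2.39 in Stim and 8.36 ± 2.33 in Naive libraries, with a log2 change of 0.02 in Stim against Naive.

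Of 24 known NF-κB target genes, 15 were higher and 1 lower in Stim against Naive, with a median log2 change of 1.77 against -0.22 over all genes. Of all genes, 19.2% were higher and 20.2% lower. The target list was chosen with earlier results of these data known, so its count is a description and not a test. The largest rises were Ifng (5.64) and Il2 (5.24), the cytokines interferon-γ and interleukin-2, and the gene that fell was Ltb (-3.80), which encodes lymphotoxin-β. Tnf rose by 1.59 (adjusted p = 0.0492, edgeR), a call lost under 13 of 20 alternatives, among them leaving out any one library other than Naive 2 and Stim 3, with values of 1.27 to 1.72 without the others. Icam1, an adhesion molecule, had a change of -0.19 and Traf1, a signalling adaptor, one of 0.29, and neither passed. Bcl2a1a, Bcl2a1b and Bcl2a1d, counted in this list, are near-identical copies whose reads cannot be assigned with certainty.

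In Torin against Stim, where 4.62% of all genes passed, the pathway genes past the test were 2 of 18 in the IκB kinase route, 1 of 11 in the noncanonical list and 2 of 15 among further inhibitors, all higher, and 1 higher and 1 lower of 24 targets. The medians were 0.25, 0.11, 0.28 and -0.27 on the log2 scale, against -0.02 over all genes. Cd83, a surface protein of activated lymphocytes, had 87.3, 83.8 and 155 CPM in Torin libraries, 21.4, 20.9, 16.5 and 26.0 in Stim libraries, and 12.2, 14.2, 5.65 and 19.8 in Naive libraries. Torin libraries lay far above the rest, with a rise of 2.36 ± 0.37 in Torin against Stim (adjusted p = 0.00895, edgeR). Icam1 had 16.2, 16.4 and 18.0 CPM in Torin libraries, 48.0, 37.7, 29.6 and 37.4 in Stim libraries, and 57.8, 47.5, 36.7 and 32.2 in Naive libraries, so Torin was lowest and Stim and Naive overlapped. Icam1 fell by 1.18 in Torin against Stim (adjusted p = 0.0183), a call lost without Torin 1 (-1.15) or Torin 3 (-1.16).

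The calls for Cd83 and Tnip1 held when any one library was left out, and both were lost without all libraries of number 4, which leaves 2 Torin libraries, with changes of 2.15 for Cd83 and 1.23 for Tnip1. The rises of Malt1 (1.22), Ikbkg (0.74, the regulatory subunit of the kinase), Cd27 (1.06, a costimulatory receptor) and Tax1bp1 (0.70, an adaptor of A20) were each lost without Torin 1, Torin 3 or Stim 4, among other libraries, with values of 0.99 to 1.31, 0.63 to 0.81, 0.91 to 1.03 and 0.59 to 0.77 where the call was lost with 1 library out. Il2 averaged 74.2 ± 35.1 CPM in Torin, 381 ± 114 in Stim and 10.1 ± 11.5 in Naive libraries. Its change was -2.36 ± 0.85 in Torin against Stim (adjusted p = 0.149, edgeR). The libraries did not overlap, as for 19.7% of all genes. The change passed with DESeq2 (-2.39, adjusted p = 0.0295) and with Naive libraries left out of the edgeR fit (-2.34, adjusted p = 0.021). It did not pass under 18 of 20 alternatives. Tnf had a change of 0.03 between Torin and Stim.

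**Figure D4:**
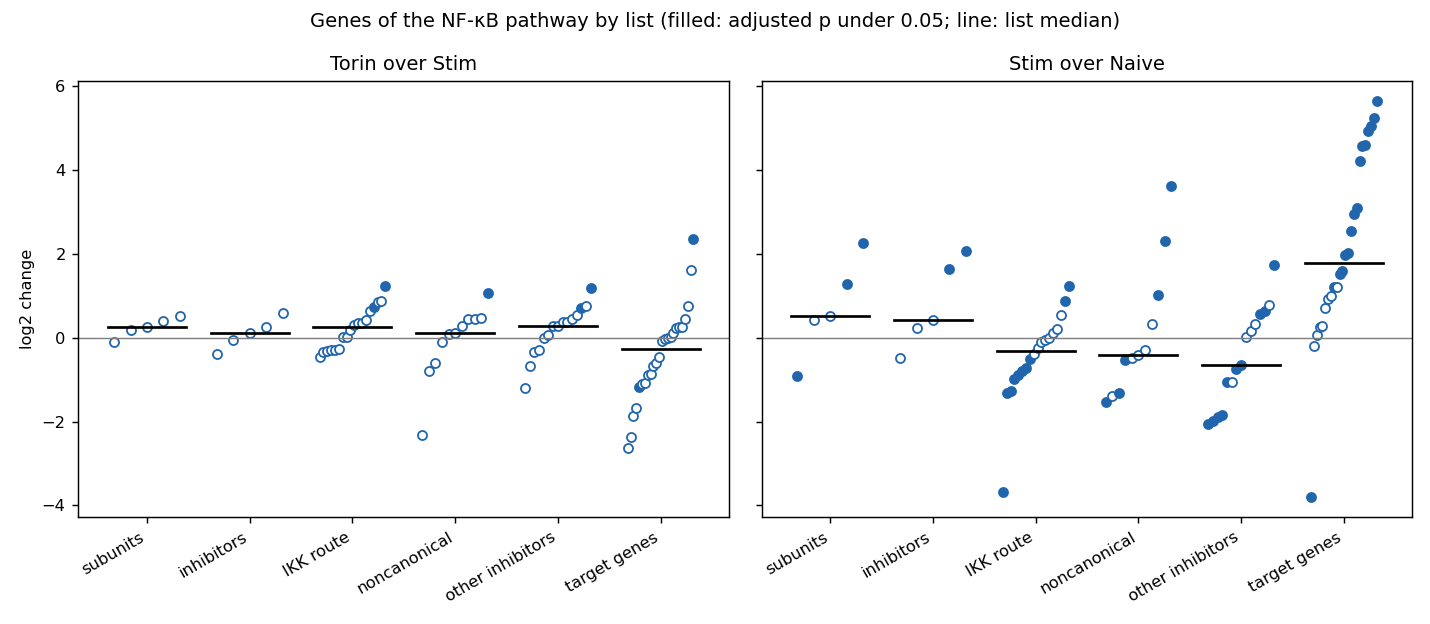
Log2 change of each gene of the subunits, the inhibitors and the 4 pathway lists in Torin over Stim (left) and Stim over Naive (right); filled points have an adjusted p under 0.05 and lines mark list medians. Target genes spread furthest upward in Stim over Naive, with a median of 1.77, and most points are open in Torin over Stim.

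Against Naive libraries, Torin libraries had 4 higher and 3 lower of 18 in the IκB kinase route, 3 and 3 of 11 in the noncanonical list, 2 and 5 of 15 among further inhibitors, and 14 and 2 of 24 targets, while 16.4% of all genes were higher and 15.8% lower. The IκB kinase route had 3 higher and 9 lower with library totals as the only scaling, 4 and 9 among genes with a mean CPM of at least 5, and 4 and 8 with DESeq2. Malt1 rose by 2.09, Bcl10 fell by 0.90, and Cyld fell by 1.51 on the log2 scale in Torin against Naive. The targets with the largest rises were Irf4 (4.66), a transcription factor of activated lymphocytes, and Il2ra (4.54), the α chain of the interleukin-2 receptor, while Ltb fell by 3.69 and Icam1 fell by 1.37.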

How the data were processed

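RNA was extracted with a QIAGEN miRNeasy Micro kit and made into libraries with a SMARTer ultra-low poly(A) V4 kit, per the labels' protocols. The tables hold estimated counts per gene and per transcript, as deposited by the authors. The gene counts used for Stim are headed Control, and were matched to Stim as the group headed neither Naive nor Torin. The submitters' processing notes name STAR 2.7.1a, SAMtools 1.9, StringTie 2.1.0, R 4.0.5, DESeq2 1.30.1 and the genome build mm39, without roles. Library totals exceed the usual number of reads, so no counting intervals are given. Gene names came from GENCODE M21 by gene ID, which named 52081 of 55414 genes (94.0%), and no mm39 coordinates are printed.

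Gene counts were tested in R 4.3.3 with edgeR 4.0.16 (quasi-likelihood F test, TMM scaling, low-count filter with a minimum count of 10, 11 libraries in one model of group means). Benjamini-Hochberg adjustment ran over 22238 genes with a threshold of 0.05. Transcript shares were tested with limma 3.58.1 on a log2 scale, over 11908 transcripts, after adding 0.5 CPM. DESeq2 1.42.0 was an alternative. Levels per kb summed transcript CPM over transcript length. Scripts were tested on simulated data.

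The 10 members and the pathway lists were chosen with earlier results of these data known. All members are named, with the 2 largest rises and falls past the threshold per pathway list and comparison and 14 pathway genes named whatever their values, of which 1 is not reported here. Nearest-pattern genes are the 2 closest per called member. Libraries share numbers across groups. Deviations from group means of same-numbered libraries correlated at 0.15 to 0.29 in Stim and Naive and at 0.11 to 0.31 in Torin and Stim. In Torin and Naive these deviations correlated at 0.08 to 0.28. Libraries of different number correlated at -0.13 to 0.07 in Stim and Naive, and at -0.19 to 0.07 in Torin and Stim. In Torin and Naive the range for different numbers was -0.18 to 0.07. Same-numbered libraries thus correlated more than differently numbered ones in each comparison, and the labels do not say what the number marks. The main tests use group means and leave number out, so they ignore any pairing. Fits with number as a block are given as an alternative. Within groups, no pair of libraries agreed within the sampling noise of the estimated counts. Counts above the usual number of reads enlarge this measure, so it cannot show that the libraries were separate samples.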

Additional observations from a re-analysis of the deposited data

Results flagged for a closer look

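Of 36 groups of 4 libraries examined, 7 held a library far from the rest by Dixon's ratio, where chance gives about 1 in 20. Among the members there was 1, in 20 groups: Relb in Stim 2, at 32.5 CPM, below the other Stim libraries at 35.7 to 36.1 CPM. The other 6 were sums of markers of other cell types. B cell markers reached 14393 CPM in Stim 4 and 47397 CPM in Naive 4, granulocyte markers 2011 CPM in Stim 2 and 8077 CPM in Naive 2, and monocyte and macrophage markers 95.3 CPM in Stim 2 and 2118 CPM in Naive 2. Their part in the members' values was not tested beyond leaving those libraries out.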

How the results depend on the processing

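Nfkb1, Rel, Relb, Nfkbib and Nfkbid kept their direction and call in Stim against Naive under all 20 alternatives, as did Nfkb1, Rel, Nfkbib and Nfkbid in Torin against Naive. Where a result below changed, the cause was not tested. The alternatives for pathway lists and levels were chosen after seeing the data. With library totals alone, signs turned in Stim against Naive for Nfkb2 (-0.093), Nfkbie (-0.25), Tnfaip3 (-0.052), Nfkbiz (-0.47) and Traf1 (-0.20), in Torin against Stim for Nfkb1 (0.045) and Nfkbie (0.056), and in Torin against Naive for Nfkbie (-0.19). Nfkbiz was -0.11 with a mean CPM of at least 5. Tnf in Torin against Stim was -0.0077 with DESeq2 size factors or its Wald test, -0.064 without number 2 and -0.083 without number 4. Leaving out 1 library turned Nfkbiz (range -0.092 to 0.21) and Icam1 (-0.32 to 0.0091) in Stim against Naive. In Torin against Stim it turned Nfkbie (-0.22 to 0.048), Rela (-0.0017 to 0.37), Nfkbid (-0.033 to 0.27), Birc3 (-0.089 to 0.22) and Tnf (-0.13 to 0.23).

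Genes called in Torin against Stim numbered 1027, against 656 with no filter, 2740 with DESeq2, 338 without number 2 and 55 without number 4, and 144 (without Torin 3) to 1058 with 1 library left out. Members called there were 1 with only the groups compared and 0 to 1 with 1 library out. Members with a transcript past the test in Torin against Naive were 0 with edgeR's exon-usage test or the block and 0 to 1 with 1 library out, and likewise 0 to 1 in Stim against Naive. Target genes called in Torin against Stim were 1 with library totals, 5 with DESeq2, 6 with only the groups compared, 1 without number 2, 0 without number 4 and 1 to 2 with 1 library out. The IκB kinase route gave 0 with no filter, only the groups compared or without number 4, 1 without number 2, and 0 to 2 with 1 library out. Further inhibitors gave 1 with no filter or without number 2, 0 without number 4 and 1 to 2 with 1 library out. Noncanonical genes gave 2 with DESeq2, 0 without number 2 or number 4 and 0 to 1 with 1 library out. The IκB kinase route gave 12, 13 and 12 in Torin against Naive with library totals, a mean CPM of at least 5 and DESeq2, and 5 in Stim against Naive without number 4. Per exon-union length, inhibitors per subunit were 4.95, 5.52 and 7.19 in Torin, Stim and Naive, Nfkbib held 23.1, 31.8 and 9.73%, Nfkb1 8.49, 10.8 and 2.79% and Relb 18.1, 14.9 and 33.7%.

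With library number as a block, 7 members passed in Stim against Naive (Nfkb2 and Rela joined), 0 in Torin against Stim and 7 in Torin against Naive (Rela, 0.62, and Tnfaip3, 0.94, joined), of 9163, 965 and 7394 genes. Nfkbie turned to 0.045 in Torin against Stim, and no other member's call changed. Torin has 3 libraries, so its intervals are the widest, and changes inside them were not detectable.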
